A study of Homo sapiens with 18 samples.

Results

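Cathepsins are proteases of the lysosome, and the 10 cathepsin genes CTSA, CTSB, CTSC, CTSD, CTSH, CTSK, CTSL, CTSO, CTSS and CTSZ were followed here in human melanoma lines with and without a knockout (KO) of ARID2. They are 10 of the 56629 symbols in each count table. The family was picked with the comparison of KO lines and controls in view, in which CTSS was lower in both cell lines and CTSB was higher in 501mel. Values of these genes in that comparison are therefore a description, given without p-values, and counts of members past the threshold there support nothing. Tests are given where the choice did not use the contrast: between KO lines, between the control lines, and between the cell lines. ARID2 encodes a subunit found in PBAF, 1 of the SWI/SNF complexes that remodel chromatin.

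Polyadenylated RNA was sequenced from 18 libraries, 2 for each of 9 lines, all grown in DMEM with serum and antibiotics. SKmel147 is labelled metastatic melanoma with NRASQ61R. Its ARID2 KO lines (KO1.4, KO1.5, KO3.20) and its transduced control NT were all stably infected with Lenti-Cas9 and a PLKO guide RNA construct, whereas Par carried no construct. 501mel is labelled metastatic melanoma with BRAFV600E. Its ARID2 KO lines (KO1.8, KO5.2) and its transduced control NTC all carried the Lenti-CRISPR V2 vector for Cas9 and guide RNA, whereas Par carried no construct. The NRAS or BRAF mutation is thus shared by KO and control lines of a cell line. The labels do not say whether a KO line is a clone or a pool, nor whether its 2 libraries stem from separate cultures. The p-values below thus reflect the scatter of these libraries, which may be purely technical.

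Cathepsins are made as inactive precursors. They are carried to the lysosome mostly by mannose 6-phosphate receptors and become active when the propeptide is cut off in the acid lumen. Most members are cysteine proteases, CTSD is an aspartic protease and CTSA a serine carboxypeptidase. In melanoma, secreted and lysosomal cathepsins are known for matrix breakdown and protein turnover. CTSS is best known for trimming the invariant chain CD74 before peptides are loaded on MHC class II. Many lysosomal genes carry the E-box CACGTG, the core of the CLEAR element that TFEB, TFE3 and MITF bind.

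Promoters of 6 of the 10 genes, CTSA, CTSC, CTSD, CTSH, CTSL and CTSZ, were searched in the RefSeq table (GRCh38.p14), from 250 bases before to 50 bases after the gene's start. Motifs were sought on both strands as E-box CACGTG, CLEAR, here the E-box with GT before and AC after it, M-box TCATGTG and AP-1 TGANTCA. An E-box stood in the windows of CTSA and CTSD and in none of the other 4. Of all 27305 promoters in the table, 7.43% held an E-box, 0.381% a CLEAR match, 2.99% an M-box and 7.76% an AP-1 match. The CTSA window held E-boxes 42 and 25 bases before the start and 1 M-box, and the CTSD window held an E-box 47 bases before the start. Neither held a CLEAR or AP-1 match in these letters. Both windows are shown because they hold an E-box, and a relation to the levels was not tested. They are printed with the E-boxes in capitals, CTSA at chr20:45891085-45891384 on the plus strand and CTSD at chr11:1763878-1764177 on the minus strand.
CTSA: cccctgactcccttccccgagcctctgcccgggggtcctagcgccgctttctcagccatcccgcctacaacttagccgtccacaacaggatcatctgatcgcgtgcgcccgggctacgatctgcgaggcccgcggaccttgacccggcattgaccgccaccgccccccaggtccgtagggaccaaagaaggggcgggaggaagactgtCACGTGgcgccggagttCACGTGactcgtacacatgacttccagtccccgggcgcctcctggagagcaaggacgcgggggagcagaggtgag
CTSD: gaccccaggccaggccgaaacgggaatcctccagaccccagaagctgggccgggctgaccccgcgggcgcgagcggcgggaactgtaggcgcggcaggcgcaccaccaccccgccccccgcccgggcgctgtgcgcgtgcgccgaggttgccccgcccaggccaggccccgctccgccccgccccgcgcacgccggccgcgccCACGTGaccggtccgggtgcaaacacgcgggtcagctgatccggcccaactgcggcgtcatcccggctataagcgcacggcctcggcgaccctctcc
A match in a window is a description of the letters and not of binding.

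Library totals were 21266522 to 35670140 counts in SKmel147 and 16749707 to 20606855 counts in 501mel. Levels are given as counts per 1000000 (CPM), scaled with trimmed mean of M-values (TMM) factors within each cell line. ARID2 RNA was at 39.8 to 56.9 CPM in KO libraries and 62.3 to 72.7 CPM in control libraries of SKmel147, and at 19.7 to 31.9 CPM in KO libraries and 40.9 to 43.2 CPM in control libraries of 501mel. Of melanocyte markers, SOX10 at -0.02, MITF at -0.14, MLANA at -0.44 and TYRP1 at -2.11 did not pass the KO test in SKmel147 (log2 differences). Among 7 tested in 501mel, DCT rose by 0.41, while TYRP1, at -0.99, and TYR, at -0.12, fell. Library ranges of KO and control lines overlapped for DCT, TYRP1 and TYR. Their NTC minus Par differences were -0.71, 0.45 and -0.33. Of fibroblast markers, COL1A1 rose by 1.67 in SKmel147, to 5.67 to 7.82 CPM in KO libraries against 1.42 to 3.40 CPM in control libraries. In 501mel COL1A1 fell by 1.03 on the log2 scale, at very low levels. These were 0.21 to 0.42 CPM in KO libraries and 0.30 to 0.83 CPM in control libraries, which overlapped. LUM did not pass in either cell line. Of epithelial markers, KRT14 rose by 1.38 in SKmel147, to 1.57 to 2.55 CPM in KO libraries against 0.56 to 0.97 CPM in control libraries, and KRT8 there and CDH1 in 501mel did not pass. Of 9 leukocyte markers, which matter because leukocytes express much CTSS, the summed level was 0.86 to 2.44 CPM in KO libraries and 1.15 to 1.32 CPM in control libraries of SKmel147. In 501mel that sum was 0.16 to 0.35 CPM in KO libraries and 0.12 to 0.30 CPM in control libraries. AIF1, CD3E and MS4A1 were at 0 in SKmel147, and PTPRC, CSF1R, CD163, AIF1, TYROBP and MS4A1 were at 0 in 501mel. CD14, CD163 and LYZ, tested in SKmel147, did not pass. The part of other cells in the cathepsin values was not tested. In bulk RNA, fewer cells that express a gene and less RNA per cell cannot be told apart.

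CTSS, the cathepsin of class II antigen processing, was lower in every KO library than in every control library, in SKmel147 and in 501mel. Among SKmel147 libraries it was measured at 1.79 and 1.65 CPM in the KO1.4 libraries, 1.57 and 1.39 CPM in those of KO1.5 and 0.55 and 0.66 CPM in those of KO3.20, against 4.95 and 3.99 CPM in NT and 17.4 and 21.8 CPM in Par. The KO lines lay below both controls, and the controls themselves lay far apart. The KO minus control log2 difference was -3.01 ± 0.14 (SE). It was -1.95 against NT alone and -4.08 against Par alone, so its size in SKmel147 depended on which control was used.

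In 501mel the control lines of CTSS lay together. It was measured at 0.36 and 0.63 CPM in the KO1.8 libraries, with 0.05 CPM in both KO5.2 libraries, against 2.61 and 2.89 CPM in NTC and 2.34 and 2.72 CPM in Par. These levels rest on few reads, 20 counts over the KO1.8 libraries and 2 over the KO5.2 libraries, against 189 over the 4 control libraries. The ratio of pooled, scaled counts was 5.30-fold lower in KO1.8 (exact 95% interval 3.33 to 8.87) and 51.7-fold lower in KO5.2 (14.1 to 430). In SKmel147 the same ratio was 6.97-fold lower in KO1.4 (5.60 to 8.77), 8.0-fold lower in KO1.5 (6.47 to 10.0) and 19.7-fold lower in KO3.20 (14.3 to 28). These intervals cover counting error only. In 501mel, CTSS passed the filter on low counts through its control libraries.

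CTSS lies on chromosome 1, next to CTSK. The 6 nearest tested genes, among them MCL1, ENSA, ARNT and SETDB1, had KO minus control log2 differences between -0.48 and 0.08 in SKmel147 and between -0.39 and 0.25 in 501mel. The median over chromosome 1 was -0.10 in SKmel147 and -0.03 in 501mel. No neighbour among these 6 was shifted as far as CTSS.

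CTSB, an endopeptidase and peptidyl-dipeptidase abundant in tumour cells, was higher in every KO library than in every control library of 501mel. It was measured at 953 and 933 CPM in the KO1.8 libraries, with 1808 and 1775 CPM in those of KO5.2, against 482 and 431 CPM in NTC and 644 and 618 CPM in Par. The KO minus control log2 difference was 1.28 ± 0.04, made up of 0.81 in KO1.8 and 1.74 in KO5.2. The median over chromosome 8, where CTSB lies, was 0.00 in KO1.8 and 0.31 in KO5.2. The 6 nearest tested genes had a median of -0.20.

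In SKmel147 the CTSB levels overlapped between the groups. They were measured at 369 and 368 CPM in the KO1.4 libraries, 279.9 and 302 CPM in those of KO1.5 and 350.3 and 312 CPM in those of KO3.20, against 258 and 281 CPM in NT and 305 and 370.3 CPM in Par. The log2 difference was 0.12 ± 0.08, and its sign turned with the control, at 0.28 against NT alone and -0.04 against Par alone.

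**Figure D1:**
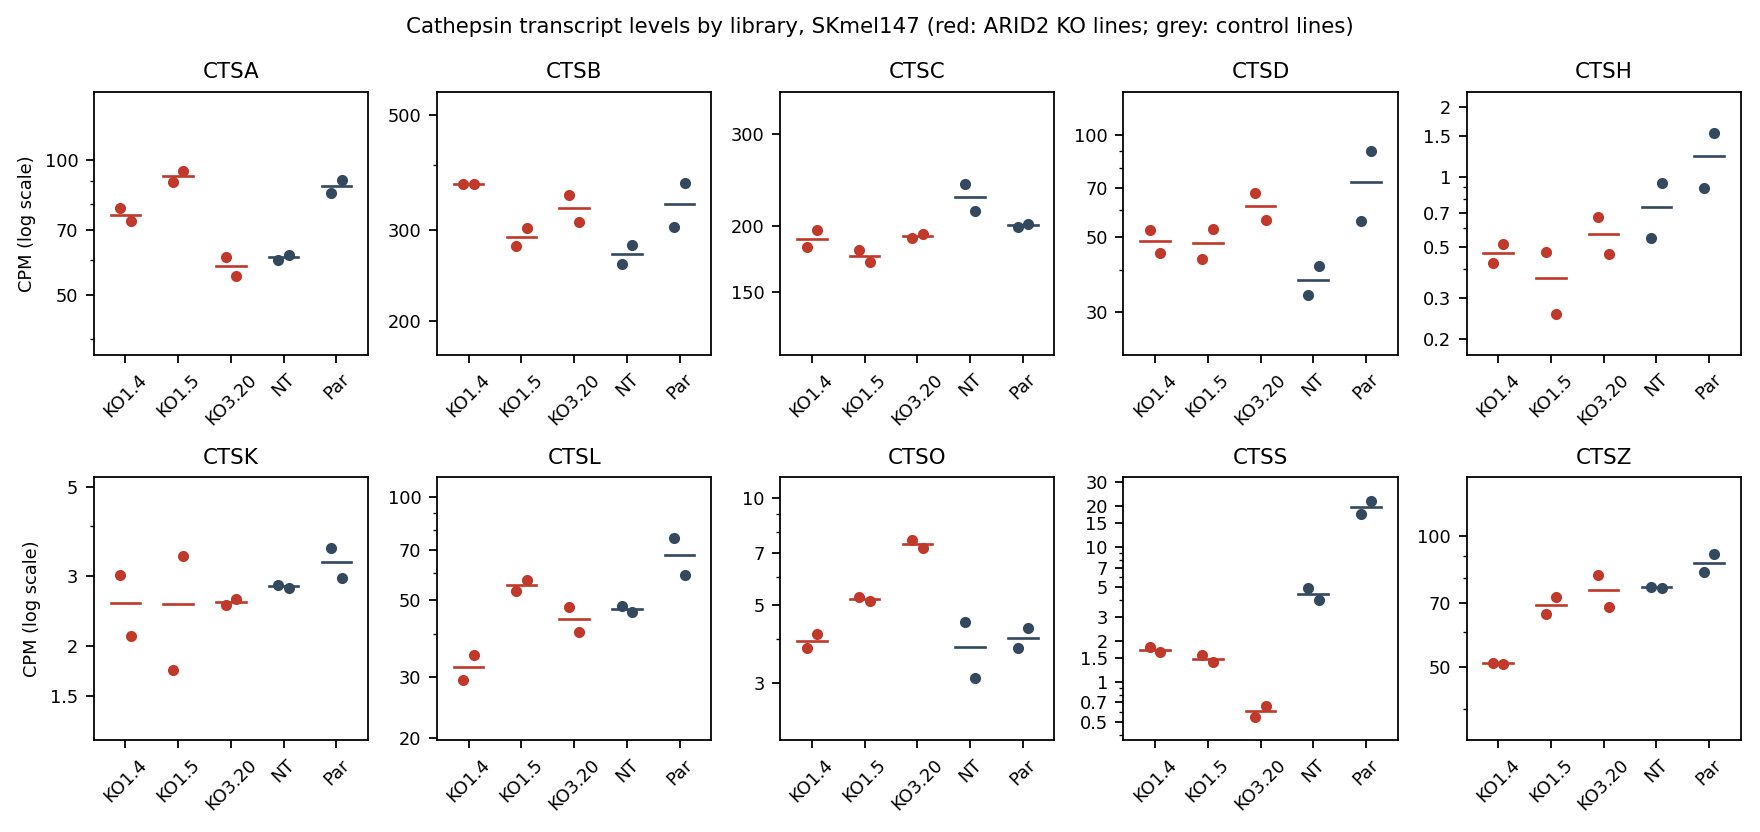
Level of each cathepsin in CPM (log scale, each panel with its own range) in the 10 SKmel147 libraries, with a dot per library and a bar at the mean of each line, KO lines in red and control lines in dark grey. CTSS is highest in Par, lower in NT and lowest in KO3.20, while CTSB overlaps between KO and control lines.

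**Figure D2:**
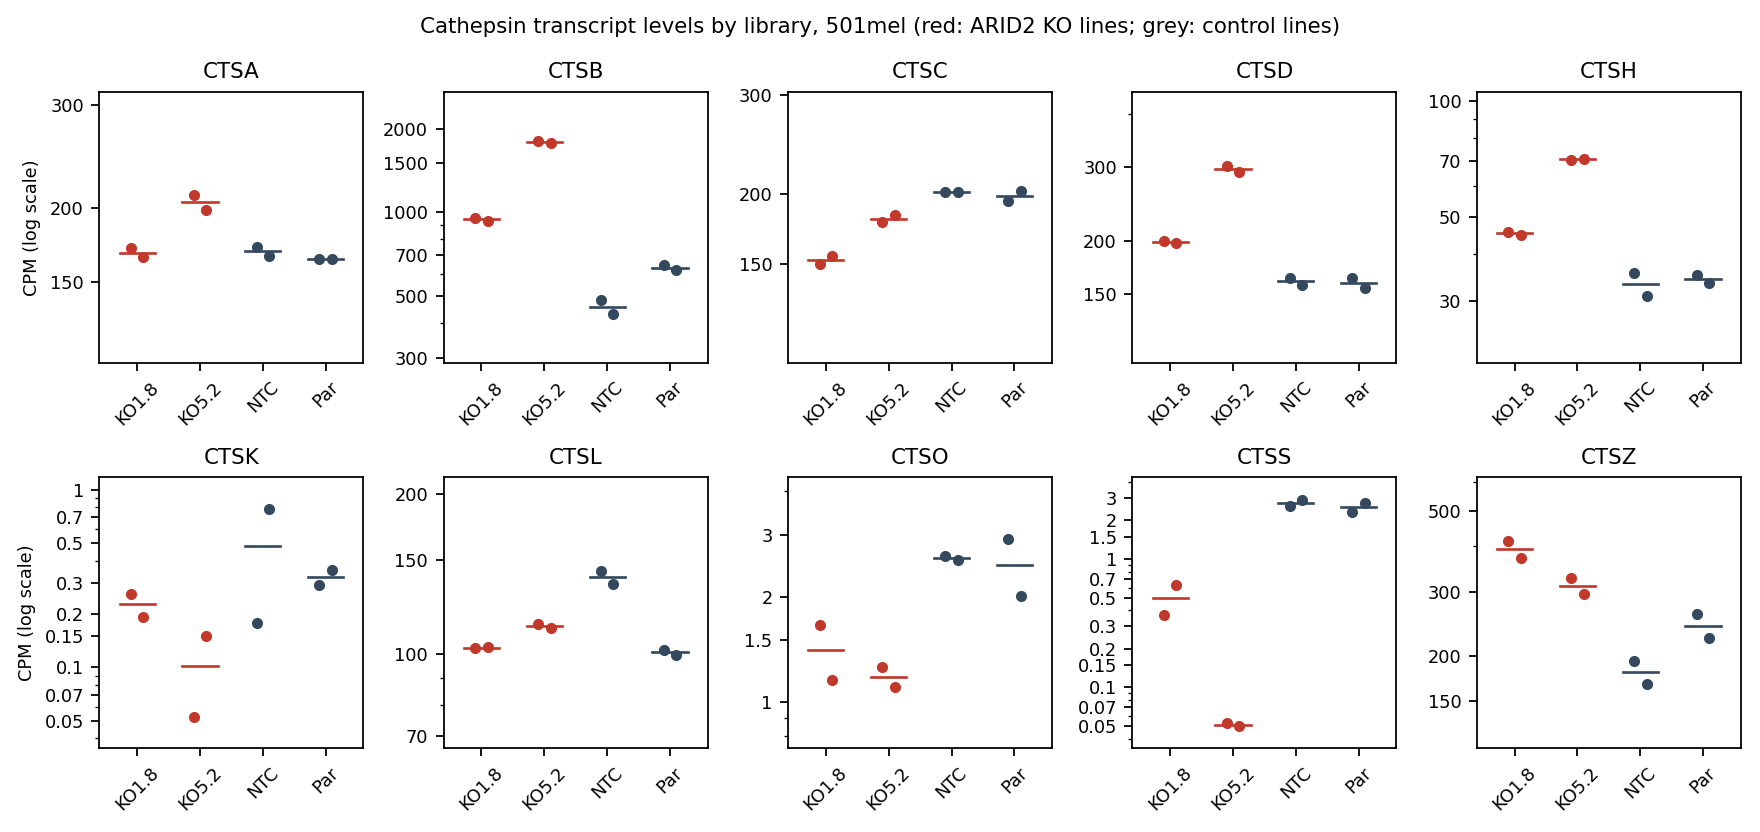
Level of each cathepsin in CPM (log scale, each panel with its own range) in the 8 501mel libraries, with a dot per library and a bar at the mean of each line, KO lines in red and control lines in dark grey. CTSB, CTSD, CTSH and CTSZ are higher in all 4 KO libraries, and CTSC, CTSO and CTSS are lower in all 4.

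CTSL, an endopeptidase with broad substrates, took different levels in different KO lines of SKmel147. It was measured at 29.4 and 34.8 CPM in the KO1.4 libraries, 53.3 and 57.4 CPM in those of KO1.5 and 47.8 and 40.6 CPM in those of KO3.20, against 48.1 and 46.2 CPM in NT and 75.9 and 59.3 CPM in Par. The log2 difference from controls was -0.81 for KO1.4, -0.03 for KO1.5 and -0.35 for KO3.20. In 501mel, CTSL was measured at 102 and 103 CPM in the KO1.8 libraries, with 114 and 112 CPM in those of KO5.2, against 143 and 135 CPM in NTC and 102 and 99.6 CPM in Par. The KO libraries lay between the controls, and the log2 difference of -0.14 ± 0.04 turned to 0.10 against Par alone. CTSL has pseudogene copies of similar sequence, and how reads that map to several places were counted is not given in the sources used here.

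CTSK, the collagen-cleaving cathepsin of bone-resorbing osteoclasts, was low in SKmel147, at 1.75 to 3.37 CPM in KO libraries and 2.81 to 3.53 CPM in control libraries. Its log2 difference was -0.25 ± 0.20. Among 501mel libraries it had 0.05 to 0.26 CPM in KO libraries and 0.18 to 0.78 CPM in control libraries, and it did not pass the filter. CTSO, a cysteine cathepsin whose role is little known, had log2 differences of opposite sign in the cell lines. In SKmel147 it was measured at 3.77 and 4.12 CPM in the KO1.4 libraries, 5.27 and 5.13 CPM in those of KO1.5 and 7.64 and 7.23 CPM in those of KO3.20, against 4.48 and 3.10 CPM in NT and 3.76 and 4.30 CPM in Par. In 501mel it was measured at 1.66 and 1.16 CPM in the KO1.8 libraries, with 1.26 and 1.11 CPM in those of KO5.2, against 2.61 and 2.55 CPM in NTC and 2.92 and 2.01 CPM in Par. The log2 differences were 0.45 ± 0.14 in SKmel147 (0.22 without KO3.20) and -0.97 ± 0.20 in 501mel, and in SKmel147 the ranges overlapped. The 6 tested neighbours of CTSO on chromosome 4 had a median of -1.31 in KO5.2 and 0.29 in KO1.8, relative to controls, and the chromosome medians were -0.10 in KO5.2 and -0.05 in KO1.8.

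CTSC, CTSH and CTSZ remove residues from the ends of proteins. CTSC, the dipeptidyl peptidase that activates serine proteases of immune granules, was lower in every KO library than in every control library of either cell line. Among SKmel147 libraries it spanned 171 to 197 CPM in KO libraries and 199.8 to 241 CPM in control libraries. In 501mel it was measured at 150.02 and 155 CPM in the KO1.8 libraries, with 178 and 183 CPM in those of KO5.2, against 194 to 202 CPM in the control libraries. The log2 differences were small, -0.20 ± 0.07 in SKmel147 and -0.27 ± 0.04 in 501mel.

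CTSH, an aminopeptidase, was scarce in SKmel147 and clearly present in 501mel. In SKmel147 it spanned 0.26 to 0.67 CPM in KO libraries and 0.54 to 1.55 CPM in control libraries, which overlapped, with a log2 difference of -1.01 ± 0.30. In 501mel it was measured at 45.6 and 44.9 CPM in the KO1.8 libraries, with 70.4 and 70.7 CPM in those of KO5.2, against 35.7 and 31.1 CPM in NTC and 35.2 and 33.5 CPM in Par. That difference was 0.74 ± 0.05, and the ranges did not overlap. The chromosome 15 median in 501mel was 0.22.

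CTSZ, a carboxypeptidase, was measured at 51.0 and 50.8 CPM in the KO1.4 libraries, 66.1 and 72.3 CPM in those of KO1.5 and 81.2 and 68.6 CPM in those of KO3.20, against 76.3 and 75.8 CPM in NT and 82.7 and 90.9 CPM in Par. Only the KO1.4 line stood well below the controls of SKmel147, and the log2 difference over all 3 lines was -0.34 ± 0.07. In 501mel, CTSZ was measured at 412 and 371 CPM in the KO1.8 libraries, with 326 and 296 CPM in those of KO5.2, against 194 and 167 CPM in NTC and 260.3 and 224 CPM in Par. Every KO library was above every control library, with a log2 difference of 0.74 ± 0.06. The chromosome 20 median was 0.24 there.

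CTSD, the aspartic protease, was higher in all KO libraries of 501mel, with 199.9 and 198 CPM in the KO1.8 libraries and 301 and 291 CPM in those of KO5.2, against 164 and 158 CPM in NTC and 163 and 155 CPM in Par. The log2 difference was 0.60 ± 0.04. Among SKmel147 libraries it spanned 43.1 to 67.3 CPM in KO libraries and 33.6 to 89.6 CPM in control libraries. The difference of 0.01 ± 0.13 hid opposite values against the controls, 0.49 against NT alone and -0.47 against Par alone. CTSA, the serine carboxypeptidase that also protects lysosomal galactosidase and neuraminidase, was measured at 171 and 165 CPM in the KO1.8 libraries, with 210.4 and 199 CPM in those of KO5.2, against 172 and 166 CPM in NTC and 164 CPM in both Par libraries. In SKmel147 it was measured at 78.4 and 73.1 CPM in the KO1.4 libraries, 89.7 and 94.9 CPM in those of KO1.5 and 60.8 and 55.3 CPM in those of KO3.20, against 60.0 and 61.6 CPM in NT and 84.7 and 90.4 CPM in Par. The log2 differences were 0.16 ± 0.04 in 501mel and 0.02 ± 0.07 in SKmel147. Exons of CTSA overlap NEURL2 and PLTP on the other strand, and exons of CTSD overlap transcripts without a gene name. The strand setting of the counting is not given in the sources used here, so these values are uncertain by that share of reads.

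Across the members, 5 of 10 in SKmel147 were past an adjusted p of 0.05 in edgeR's quasi-likelihood fit (CTSO higher, CTSH, CTSL, CTSS and CTSZ lower), where 17.7% of the 18361 genes tested were, 8.07% higher and 9.6% lower. In 501mel, 9 of 9 were, 5 higher and 4 lower, where 51.3% of 16230 genes were, 24.8% higher and 26.5% lower. Nothing is read from these counts, since the family was chosen on this contrast. With each line counted as 1 replicate, no member passed in edgeR. At an unadjusted p under 0.05 there were 2 of 10 in SKmel147 and 6 of 9 in 501mel. Of all genes, 8 passed in SKmel147 and 0 in 501mel, where 2245 had an unadjusted p under 0.05. In limma voom with the line as a random block, 1 of 10 and 5 of 9 members passed. Of all genes, 597 of 18361 and 939 of 16230 did so. Libraries did not overlap for CTSC and CTSS, both lower, in SKmel147, where 4.59% of genes were lower without overlap and 4.0% higher. In 501mel they did not overlap for CTSB, CTSD, CTSH and CTSZ, all higher, and for CTSC, CTSO and CTSS, all lower, where 13.2% of genes were higher and 13.9% lower without overlap.

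**Figure D3:**
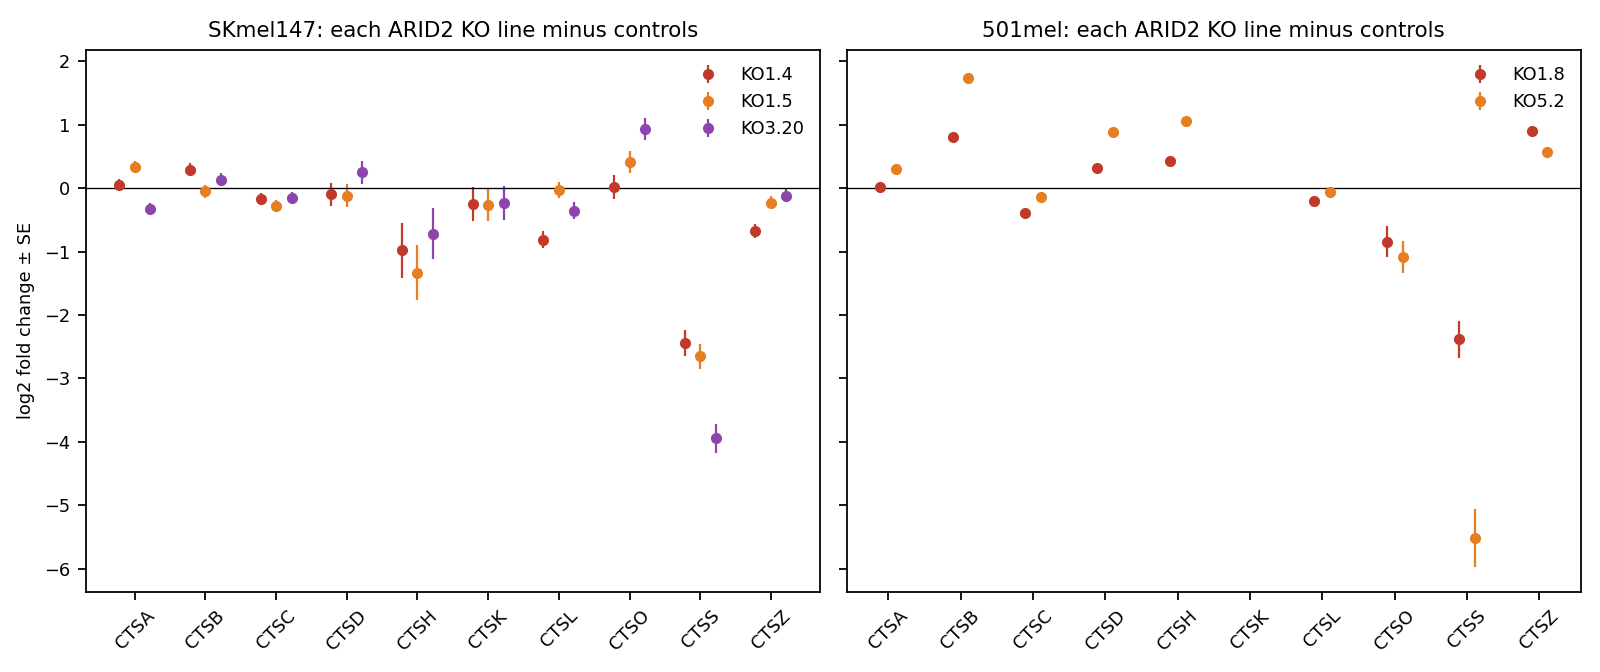
Log2 fold change of each cathepsin in each ARID2 KO line minus the mean of the 2 control lines of its cell line, with bars of 1 standard error from the edgeR fit (CTSK was not tested in 501mel). CTSS lies between -2.39 and -5.51 in all 5 KO lines, while CTSB reaches 0.81 and 1.74 in the 501mel lines and stays between -0.05 and 0.29 in the SKmel147 lines.

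KO lines were next compared with each other. The control libraries are on neither side of these contrasts. They enter through the estimate of spread shared by all libraries of a cell line, the filter on low counts and the TMM scaling. Without either Par library of SKmel147 the spread and scaling were estimated anew, and 667 or 684 genes differed between KO1.5 and KO1.4 in place of 399. KO5.2 and KO1.8 of 501mel differed in 7 of 9 tested members, where 41.3% of all genes differed. CTSB was higher in KO5.2, by a log2 difference of 0.93 ± 0.06 (edgeR, adjusted p = 2.66e-08). CTSH was higher by 0.64 ± 0.07 (edgeR, adjusted p = 4.51e-06) and CTSD by 0.57 ± 0.05 (edgeR, adjusted p = 1.20e-06). CTSA was higher by 0.28 ± 0.05 and CTSC by 0.24 ± 0.05. CTSS was lower in KO5.2 by a log2 value of -3.13 ± 0.71 (edgeR, adjusted p = 0.00256). That value rests on 1 and 1 counts in KO5.2 and 7 and 13 counts in KO1.8, and CTSS was tested there only because its control libraries passed the filter. CTSZ was lower by -0.33 ± 0.08 (edgeR, adjusted p = 0.00526). CTSL, at 0.14 ± 0.05, and CTSO, at -0.25 ± 0.31, did not pass, though CTSL did without either Par library (adjusted p = 0.0492 and 0.0490). For CTSZ the call was lost without the second KO5.2 library (adjusted p = 0.0667).

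Whole chromosomes differed between these lines too. The median difference of KO5.2 minus KO1.8 was 0.29 over chromosome 8, 0.26 over chromosome 11, where CTSC and CTSD lie, and -0.49 over chromosome 9, where CTSL lies. It was 0.02 over chromosome 20, with CTSA and CTSZ, 0.04 over chromosome 15, with CTSH, and -0.03 over chromosome 1. CTSC thus stood near its chromosome's median, CTSB and CTSD above theirs, and CTSL above the lower median of chromosome 9. The 6 tested neighbours of CTSB had a median of -0.26. The part of such shifts in the members' differences was not tested.

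In SKmel147, KO3.20 was compared with the mean of KO1.4 and KO1.5, and 3 of 10 members differed, where 3.79% of all genes did. CTSS was lower in KO3.20 by a log2 value of -1.39 ± 0.24 (edgeR, adjusted p = 0.00746). CTSA was lower by -0.53 ± 0.09 (edgeR, adjusted p = 0.00946), beside a median of -0.31 over chromosome 20. CTSO was higher by 0.71 ± 0.17 (edgeR, adjusted p = 0.0424), beside a median of -0.02 over chromosome 4. CTSZ, also on chromosome 20, was at 0.34 ± 0.10 and did not pass. The 3 calls were lost when either KO3.20 library was left out, and that of CTSO also without any single KO1.4 or KO1.5 library (adjusted p of 0.0995 to 0.146). KO1.5 and KO1.4 differed in 1 of 10 members, where 2.17% of all genes differed. That member was CTSL, higher in KO1.5 by 0.78 ± 0.15 (edgeR, adjusted p = 0.0182), a call lost when any of the 4 libraries was left out. CTSS differed by -0.21 ± 0.24 between these lines, which did not pass.

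**Figure D4:**
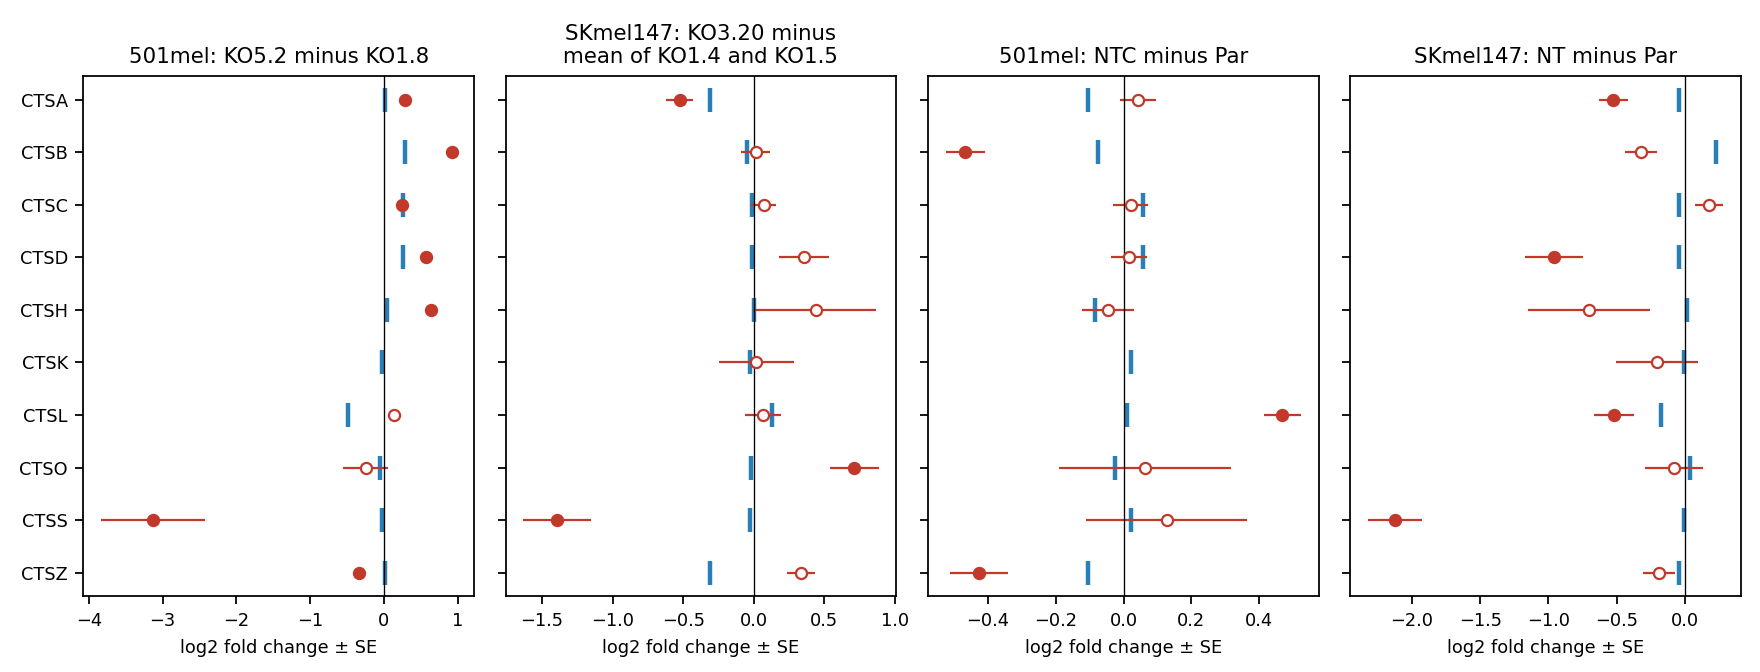
Log2 fold change of each cathepsin in the comparisons that do not set KO lines against controls, with bars of 1 standard error, filled dots for an adjusted p under 0.05 and blue ticks for the median of all tested genes on the gene's chromosome (each panel with its own axis). CTSS is lower in KO5.2 than in KO1.8, in KO3.20 than in KO1.4 and KO1.5, and in NT than in Par of SKmel147, at -3.13, -1.39 and -2.13. The 501mel value rests on 2 counts over the KO5.2 libraries and 20 over those of KO1.8, and CTSS was tested there only through the control libraries.

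The control lines were compared to see how far these genes differ without an ARID2 KO. In SKmel147, 4 of 10 members were lower in NT than in Par, where 9.27% of all genes differed and 5.45% were lower. CTSS was lower in NT by a log2 value of -2.13 ± 0.20 (edgeR, adjusted p = 0.000154), beside the -1.95 of the KO lines against NT alone. CTSD was lower by -0.96 ± 0.21 (edgeR, adjusted p = 0.0166), CTSA by -0.53 ± 0.11 (edgeR, adjusted p = 0.0121) and CTSL by -0.52 ± 0.15 (edgeR, adjusted p = 0.0462). Without the first NT library, CTSS alone passed. CTSD also lost its call without the second Par library (adjusted p = 0.0938), and CTSL lost its call in 9 of the 10 fits that left out a library. CTSB was at -0.32 ± 0.12 and did not pass (without the first Par library it did, at -0.46 with an edgeR adjusted p of 0.0310), beside a median of 0.23 over chromosome 8.

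In 501mel, 3 of 9 members differed between NTC and Par, where 15.7% of all genes did. CTSB was lower in NTC by a log2 value of -0.47 ± 0.06 (edgeR, adjusted p = 8.16e-05) and CTSZ by -0.43 ± 0.09 (edgeR, adjusted p = 0.00361). CTSL was higher in NTC by 0.47 ± 0.05 (edgeR, adjusted p = 4.71e-05). CTSS was at 0.13 ± 0.24 and did not pass. CTSZ lost its call without the second NTC library (adjusted p = 0.0704). For CTSB and CTSZ the transduced control was thus on the other side of Par from the KO lines, and for CTSS of SKmel147 it lay between Par and the KO lines.

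The cell lines were set against each other in a joint fit of all 18 libraries, over the same control libraries as above. All 10 members differed between SKmel147 and 501mel controls, where 80.7% of 19518 genes did. In SKmel147, CTSH was lower by a log2 value of -5.12 ± 0.15, CTSD by -1.56 ± 0.12, CTSZ by -1.30 ± 0.07, CTSA by -1.13 ± 0.06, CTSL by -1.0 ± 0.08 and CTSB by -0.76 ± 0.07. CTSS was higher in SKmel147 by 1.89 ± 0.15, CTSO by 0.69 ± 0.16 and CTSC by 0.16 ± 0.06 (edgeR, adjusted p = 0.0148 for CTSC, the highest of the 10). CTSK had 2.86 to 3.60 CPM in SKmel147 control libraries and 0.17 to 0.77 CPM, from 3 to 16 counts, in those of 501mel (joint scaling). It entered the joint fit through SKmel147, where it was high, so its call followed from the filter. The CTSC call was lost in 5 alternatives, among them the fit of the 8 control libraries alone, and the CTSO call with the line as replicate (adjusted p = 0.0574).

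Levels of different genes were compared as joint-scaled CPM per kilobase of exon (CPM per kb). In SKmel147 controls the order ran from CTSB at 41.7 ± 6.6 and CTSZ at 40.7 ± 3.5 CPM per kb (SD, n = 4 libraries), whose ranges overlapped, to CTSL at 24.7, CTSC at 19.1, CTSD at 17.9 and CTSA at 12.9, each overlapping the next. CTSS at 2.90, CTSK at 1.64 and CTSO at 1.35 CPM per kb overlapped likewise, and CTSH was lowest at 0.17. In the SKmel147 KO lines CTSS was at 0.31 CPM per kb, below CTSO at 1.92 and CTSK at 1.39, and its range overlapped neither. In 501mel KO lines CTSB led at 179 and CTSZ followed at 168 CPM per kb, with overlap, against 71.2 for CTSB and 101 for CTSZ in the controls, also with overlap. CTSS, at 0.06 CPM per kb in 501mel KO lines and 0.61 in controls, was among the lowest members there. With the longest transcript as the length, CTSC came directly after CTSZ in SKmel147 KO lines and controls, CTSL came after CTSA in the KO lines, and CTSB at 79.9 no longer overlapped CTSZ at 55.5 CPM per kb in the controls. In 501mel KO lines CTSA then came before CTSL.

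**Figure D5:**
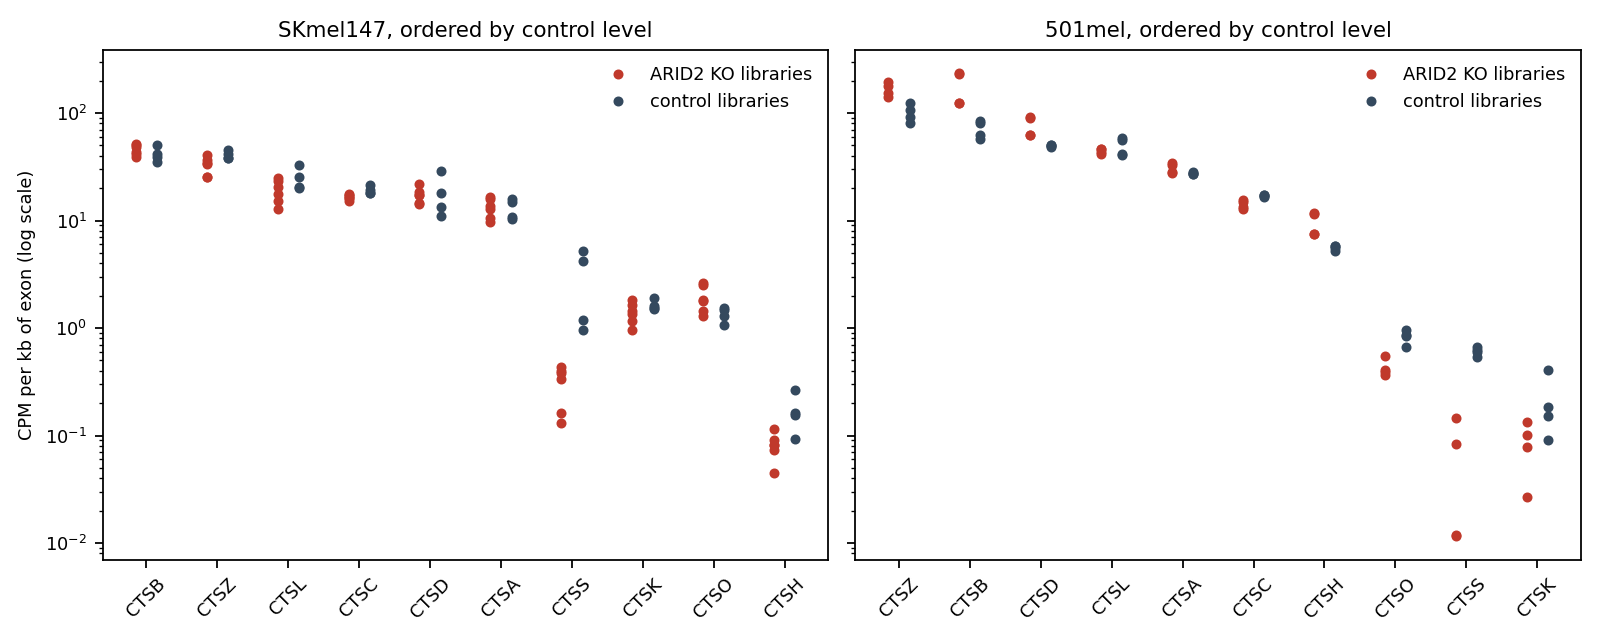
Level of each cathepsin in CPM per kb of exon (log scale) in every library, KO libraries in red to the left and control libraries in dark grey to the right of each tick, ordered by the control level of each cell line. CTSB and CTSZ lead in both cell lines, and CTSH is lowest in SKmel147 controls but at 5.59 CPM per kb in 501mel controls.

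Other genes of cathepsin biology were counted with the test of KO lines against controls. Of all genes tested, 8.07% rose and 9.6% fell in SKmel147, and 24.8% rose and 26.5% fell in 501mel. Of the other cathepsins, 1 of 3 tested rose in SKmel147 (CTSV, by 0.46 ± 0.12, edgeR adjusted p = 0.0255) and 1 of 2 in 501mel (CTSF, by 0.30 ± 0.06, edgeR adjusted p = 0.000705). CTSE at -0.44 and CTSF at 0.18 in SKmel147 and CTSV at -0.09 in 501mel did not pass. Among the cystatins, which inhibit cysteine cathepsins, 1 of 3 fell in SKmel147 (CST7, by a log2 value of -1.07) and 1 of 2 rose in 501mel (CST3, by 0.64). Library ranges of CST7 overlapped, and its NT minus Par difference was 0.92. CSTB was at 0.01 in SKmel147 and 0.12 in 501mel and did not pass. LGMN, the legumain that cuts several procathepsins, rose by 0.58 in SKmel147 and was at -0.06 in 501mel, which did not pass.

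Of 16 genes of processing and mannose 6-phosphate sorting, 1 rose and 1 fell in SKmel147 and 8 rose and 2 fell in 501mel, where 24.8% of all genes rose and 26.5% fell. IGF2R, the large mannose 6-phosphate receptor, fell by 0.36 on the log2 scale in SKmel147, with overlapping library ranges and NT minus Par at -0.39. M6PR, the small one, fell by 0.33 on that scale in 501mel, while PSAP and SORT1 rose by 0.33 each. Of other lysosomal hydrolases, 7 rose and 3 fell of 34 in SKmel147, with a median of 0.11, and 16 rose and 7 fell of 33 in 501mel, with a median of 0.14, beside those same shares of all genes. The median over all genes was -0.01 in each cell line. FUCA1, the lysosomal fucosidase, rose by 1.69 in SKmel147 and 0.60 in 501mel. GALC and GLB1 fell in SKmel147, both with overlapping library ranges, and TPP1 fell in 501mel. NT minus Par was 0.83 for GALC and -0.05 for GLB1.

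Of 25 tested genes of the lysosomal membrane and proton pump, 3 rose in SKmel147, among them ATP6V0A1 by 0.51, and 12 rose and 6 fell in 501mel, against 24.8% and 26.5% of all genes, with LAMP2 at 0.84. Among regulators, TFEB rose by 0.61 and TFE3 by 0.16 in 501mel, and MITF was at 0.04 there, which did not pass. CIITA, the master regulator of class II genes, rose by 1.0 in SKmel147, with overlapping ranges of KO and control libraries. The class II partners of CTSS that passed went the other way from CTSS. All 6 tested rose in SKmel147, among them HLA-DPA1 by 1.43 ± 0.14 and CD74 by 0.88 ± 0.20. Library ranges there overlapped for CD74 (395 to 950 CPM in KO, 245 to 650 CPM in controls) but not for HLA-DPA1. In 501mel 2 of 3 rose, HLA-DPA1 by 1.02 ± 0.21 and HLA-DMA by 0.46 ± 0.10, and HLA-DMB at 0.15 did not pass. Class II levels were low in 501mel, with HLA-DRA and HLA-DRB1 at 0. The summed level was 20.8 to 23.9 CPM in KO libraries and 13.5 to 22.3 CPM in control libraries, which overlapped. In SKmel147 the median of these 6 between NT and Par was -0.83, in the same direction as CTSS.

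Genes whose pattern over the 9 lines was most like a member's were ranked by Pearson r of log2(CPM + 1), centred within each cell line, over 14672 genes. For CTSS these were CD46P1 at 0.985, UBALD1 at 0.983, MURC at 0.982, METTL1 at 0.975 and HN1 at 0.974. For CTSB they were RP13-996F3.3 at 0.986, RP11-152F13.3 at 0.985, RP11-152F13.7 at 0.979, PRDM15 at 0.978 and RP11-561C5.4 at 0.970. RP13-996F3.3 and RP11-152F13.3 had the same KO minus control log2 difference in SKmel147, 0.0805, and nearly the same in 501mel, 0.556 and 0.555. Whether they count the same reads was not tested. The points share libraries and scaling, and the ranking picks the highest values, so these are a description.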

How the data were processed

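Polyadenylated RNA was sequenced in 18 libraries. The deposited tables hold unnormalised read counts by gene symbol, which the authors made with STAR 2.6.0 and featureCounts on GRCh37 or hg19, per the submitters' processing notes. Strand setting, annotation release and handling of multi-mapping reads were not given in the sources used here. All deposited columns were used. The SKmel147 table heads the columns of the NT samples NTC.

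Counts were fitted per cell line in R 4.3.3 with edgeR 4.0.16 (TMM scaling, filterByExpr by line, 1 coefficient per line, two-sided quasi-likelihood tests, Benjamini-Hochberg adjustment over all genes tested, threshold 0.05), and jointly for the comparison of cell lines. The procedure was tested on simulated data. The simulated lines of a group shared the same means, so that test cannot show how the fits behave where lines differ. For KO against controls, the average over KO lines was set against the average over both control lines. The precision of low genes is limited by their counts. Exon lengths, chromosomes and gene order came from GENCODE 29 (GRCh38), matched by symbol for 35322 of 56629 symbols, 1325 through a RefSeq synonym. That build differs from the authors' one. Its exon lengths, chromosomes and gene order were joined to the counts by gene symbol, and no reads were placed on its coordinates. Between 82.4% and 85.3% of tested genes were placed.

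The members and the 11 other gene lists were chosen with earlier results of these data known. Genes named from a list were the 2 rising and 2 falling with the smallest p among those called, every gene of a list with 5 or fewer tested, and ARID2, CD74, CSTB, CST3 and LGMN. A gene that this rule names is not reported here. Alternatives were DESeq2 1.42.0 (size factors and Wald test), no low-count filter, a replicate block, each library or KO line left out, either control alone, the line as replicate, limma 3.58.1 voom with the line as a random block, the 8 control libraries alone, and the longest transcript as length.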

Additional observations from a re-analysis of the deposited data

Results flagged for a closer look

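CTSC in the first Par library of 501mel, at 194 CPM, stood apart from the other 3 control libraries at 201 to 202 CPM. It was the 1 case among 40 groups of libraries examined with Dixon's criterion, which chance alone meets in about 1 of 20 groups.

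Effects of opposite sign in the cell lines, with every KO or transduced library on its side of the mean of the libraries it was set against, though the ranges could overlap, were found for 4 values on the log2(CPM + 0.1) scale. The difference between the cell lines was not tested in these cases. For CTSH, KO minus controls was -0.89 in SKmel147 and 0.74 in 501mel, a difference of -1.62. For the transduced control minus Par, CTSS was at -2.10 in SKmel147 and 0.12 in 501mel, a difference of -2.22. CTSL was at -0.51 in SKmel147 and 0.47 in 501mel, a difference of -0.98. CTSA was at -0.52 in SKmel147 and 0.042 in 501mel, a difference of -0.57. In 501mel, neither CTSS nor CTSA passed the test of NTC against Par, so opposite effects are not shown for them.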

How the results depend on the processing

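For the 28 member calls of the tested comparisons, 336 values under the alternatives kept the direction and the call and 36 kept the direction but lost the call. Members not called there gained a call in 5 cases: CTSZ between KO1.5 and KO1.4 with DESeq2 (adjusted p = 0.0319), CTSB between NT and Par without the first Par library (edgeR, 0.0310), and CTSL between KO5.2 and KO1.8 with the replicate block (edgeR, 0.0228) or without either Par library. In KO against controls, 949 member values moved by less than the spread between libraries, 58 moved further, and CTSL of 501mel, past the threshold at -0.14, turned sign against Par alone (0.10). In SKmel147, CTSA (-0.24), CTSB (-0.04) and CTSD (-0.47), not past the threshold, also had the other sign against Par alone. CTSS in SKmel147 ranged from -4.08 (Par alone) to -1.95 (NT alone). The cause of these shifts was not tested.

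Counts of genes called changed most with the unit of replication. In SKmel147, 3245 genes differed between KO and controls, but 2076 against NT alone, 2077 without KO3.20, 597 with voom and the line as random block and 8 with the line as replicate. Members past the threshold there were 5, but 3 with DESeq2, without KO1.5 or without KO3.20, 2 against NT alone or without KO1.4, 1 with voom and 0 with the line as replicate (edgeR; 2 at an unadjusted p under 0.05), and 3 to 5 with a library left out. In 501mel, 8325 genes were called, but 939 with voom and 0 with the line as replicate (edgeR; 2245 at an unadjusted p under 0.05). The 9 members became 5 with voom and 0 with the line as replicate (6 at an unadjusted p under 0.05). Between SKmel147 NT and Par, 1702 genes and 4 members became 443 to 2408 genes and 1 to 4 members with a library left out, and 2680 genes without the filter. Between KO1.5 and KO1.4, 399 genes and 1 member became 670 genes and 2 members with DESeq2, 957 genes without the filter, and 95 to 684 genes and 0 to 1 member with a library left out (3 members at an unadjusted p under 0.05 in each edgeR fit with 0). For KO3.20, 696 genes and 3 members became 1099 genes without the filter and 158 to 969 genes and 0 to 3 members with a library left out (3 or 4 members at an unadjusted p under 0.05 in the edgeR fits with 0). Between NTC and Par of 501mel, 2548 genes became 1590 with DESeq2 and 1324 to 2653 with a library left out. A lone library left in a line is assumed to vary like the others.

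The replicate numbers were not taken to pair the libraries, and whether they do was not settled. Deviations of same-numbered libraries correlated at -0.48 to 0.56 in SKmel147 (over 0.1 in 4 of 10 pairs of lines). In 501mel they correlated at -0.01 to 0.20 (3 of 6). With the replicate block, 3083 genes in place of 3245 were called in SKmel147 KO against controls, and 9042 in place of 8325 in 501mel. Between NTC and Par of 501mel, 3559 were called in place of 2548, and between KO5.2 and KO1.8, 7514 in place of 6701. Members past the threshold were 4 in place of 5 in SKmel147 KO against controls and 8 in place of 7 between KO5.2 and KO1.8. CTSL between NT and Par then had an adjusted p of 0.0551 and CTSO in KO3.20 an adjusted p of 0.0550 (edgeR).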
